A study of Homo sapiens with 6 samples.

Results

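The receptors for transforming growth factor beta (TGF-beta) and activin, and the SMAD proteins that carry their signal, were examined in MDA-MB-231 cells, a human line established from a triple-negative breast cancer (TNBC). The genes were taken by symbol from the count tables: the receptors TGFBR1, TGFBR2, TGFBR3, ACVR1, ACVR1B and ACVR2A and the signal carriers SMAD2, SMAD3, SMAD4 and SMAD7. All 10 were among the 23228 genes listed, and all 10 passed edgeR's default filter on low counts, which left 12796 genes to test. RNA-seq was done on 3 replicates of control cells, which stably express a non-targeted shRNA, and 3 replicates of PELP1-KD cells, which stably express an shRNA against the coregulator PELP1. Both groups were made with lentiviral particles, selected with puromycin and grown in RPMI medium with serum. Each group rests on a single shRNA. The labels do not say that replicates came from separate cultures, so the p-values measure the spread between these samples, which may be technical.

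TGF-beta binds TGFBR2, a type II receptor kinase, which then phosphorylates and activates TGFBR1, a type I receptor kinase. TGFBR1, and ACVR1B for activin, phosphorylate SMAD2 and SMAD3, which join SMAD4 and enter the nucleus to change transcription. SMAD7 is an inhibitory SMAD, induced by the pathway itself, that blocks the type I receptors and brings ubiquitin ligases to them. In breast epithelium the pathway restrains growth, and in advanced carcinoma it is known for its part in epithelial to mesenchymal transition and invasion.

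The replicates held 17304864 to 23132102 gene counts, so that 3 counts of the library total correspond to 0.13 to 0.173 CPM. CPM is the count of a gene scaled to a fixed library size, and the values below were also scaled by edgeR's TMM factors, which adjust for differences in library composition. PELP1 had 968, 1274 and 1069 reads in the control replicates against 557, 637 and 712 in the PELP1-KD replicates, and its log2 fold change (log2FC, PELP1-KD against control) was -0.97 (standard error 0.055, edgeR adjusted p-value 1.48e-11). In the GENCODE annotation, 2547 exon bases of PELP1 lie under an antisense gene whose symbol is not among those counted, and whether reads were counted by strand is not given in the sources used here. The 6 markers chosen for the line, VIM, CD44, EGFR, AXL, MSN and FOSL1, ranged from 109 to 2291 CPM over all replicates. Their summed level was 5628 to 5761 CPM in the control cells and 4742 to 4833 CPM in PELP1-KD cells. Of the luminal markers, ESR1, PGR and CDH1 had at most 4 reads in any replicate, while GATA3 (6.42 to 8.11 CPM) and ERBB3 (4.46 to 5.53 CPM) were detected at low levels. Summed over the 5 luminal markers, the level was 11.8 to 12 CPM in control cells and 12.6 to 13.8 CPM in PELP1-KD cells. Of the leukocyte markers, PTPRC had 0 reads in every replicate and CD3E at most 2, and the endothelial markers PECAM1 and CDH5 had at most 7. The part of the lower line markers in the results was not tested. In bulk RNA, fewer cells with a transcript and less of it per cell cannot be told apart.

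The TGF-beta receptors and the SMADs that carry their signal forward were lower in PELP1-KD cells, while the inhibitory SMAD7 and the type I receptor ACVR1 were higher. With the threshold for the adjusted p-value of edgeR's quasi-likelihood test at 0.05, 6 of the 10 genes were downregulated (TGFBR1, TGFBR2, TGFBR3, SMAD2, SMAD3 and SMAD4), where 24.2% of all tested genes were. ACVR1 and SMAD7 were upregulated, 2 of 10, where 22.7% of all tested genes were. ACVR1B and ACVR2A did not pass. Over all tested genes the split was 3103 downregulated and 2904 upregulated, and it shifted to 2418 and 3817 with scaling by library totals in place of TMM. The changes were small: 0 of the 10 genes had a log2FC beyond 1 in either direction, and their median log2FC was -0.15, against 0.0014 over all tested genes. In 9 of the 10 genes the replicates of the groups did not overlap, which was also the case for 55.0% of all tested genes. For ACVR1B the margin was negligible, with a lowest PELP1-KD value of 22.68 CPM and a highest control value of 22.64 CPM.

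**Figure D1:**
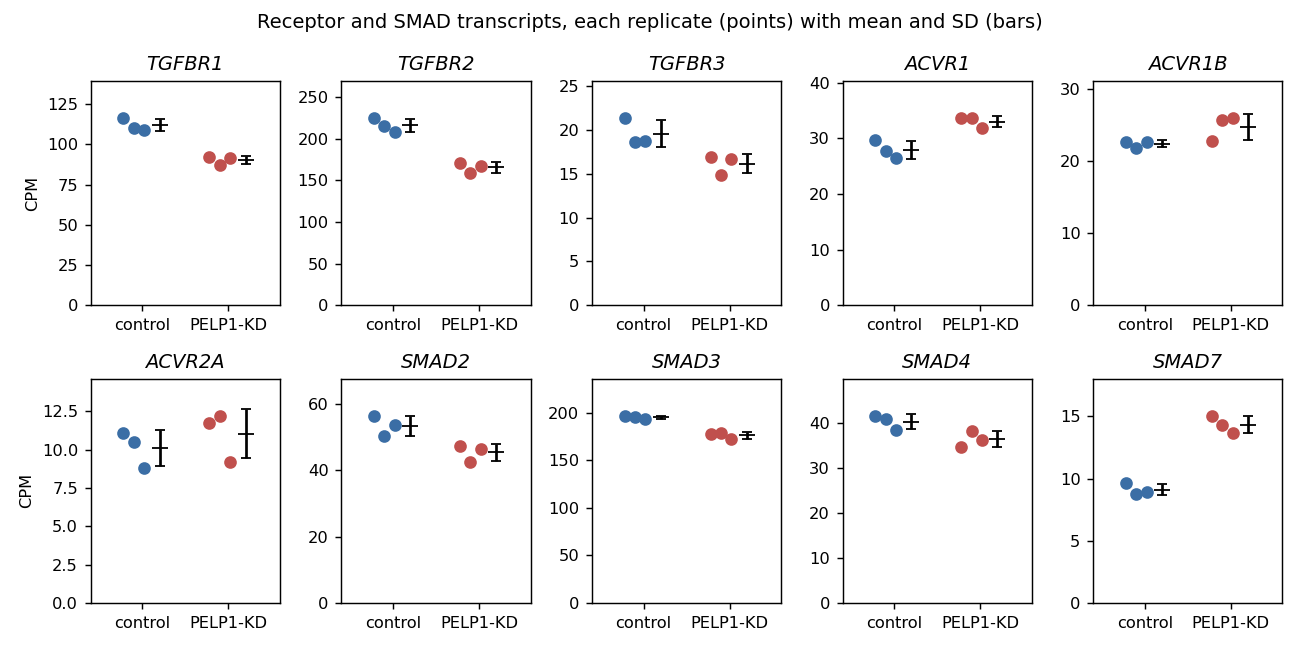
CPM (y axis, from 0) of each of the 10 genes in the 3 control (blue) and 3 PELP1-KD (red) replicates, with the mean and SD as black bars. TGFBR1, TGFBR2, TGFBR3, SMAD2, SMAD3 and SMAD4 lie lower in every PELP1-KD replicate. ACVR1, ACVR1B and SMAD7 lie higher, although ACVR1B in PELP1-KD replicate 1 is level with the controls. The groups overlap for ACVR2A.

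TGFBR2, the type II receptor that binds TGF-beta, showed the lowest p-value of the 10 genes. It lies on the plus strand of chromosome 3 (30606502 to 30694142, GRCh38), and its principal transcript has 7 exons. TGFBR2 had 225, 216 and 208 CPM in control replicates 1, 2 and 3 and 171, 158 and 168 CPM in PELP1-KD replicates 1, 2 and 3. Every PELP1-KD replicate was thus below every control replicate, by more than the SD of 8.16 CPM within the control and 6.43 CPM within the PELP1-KD group (n = 3 each). The log2FC was -0.38 (standard error 0.039, edgeR adjusted p-value 7.38e-08), a level 23.4% lower. Of all tested genes, 80.7% changed less in size, and 3328 to 4911 reads per replicate were counted on TGFBR2.

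TGFBR1, the type I receptor activated by TGFBR2, lies on the plus strand of chromosome 9 (99104038 to 99154192). Its values were 116, 110 and 109 CPM in the control replicates and 91.9, 87.3 and 91.7 CPM in the PELP1-KD replicates. The groups did not overlap, and the gap between them was wider than the range within either group. TGFBR1 was 19.3% lower, with a log2FC of -0.31 (standard error 0.043, edgeR adjusted p-value 5.52e-06). TGFBR3, or betaglycan, is a coreceptor without kinase activity that presents ligand to TGFBR2, and lies on the minus strand of chromosome 1 (91680343 to 91906335). It was expressed at a lower level, with 21.3, 18.6 and 18.8 CPM in the control replicates and 17.0, 14.9 and 16.7 CPM in the PELP1-KD replicates. The groups did not overlap for TGFBR3, although control replicate 1 stood above the other two. Its log2FC was -0.27 (standard error 0.081, edgeR adjusted p-value 0.00917). Without PELP1-KD replicate 2, which held the lowest value, the log2FC of TGFBR3 was -0.22 and no longer passed (adjusted p-value 0.0572).

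The proportion of the receptor pair was also compared. Of the summed TGFBR1 and TGFBR2 reads per transcript length, TGFBR2 made up 73.2%, 73.4% and 72.9% in control cells. In PELP1-KD cells it made up 72.4%, 71.9% and 72.1%. This share does not depend on how libraries are scaled. The difference was -1.04 percentage points, with all PELP1-KD values below all control values (exact permutation test, two-sided, p = 0.1, its lower bound with 3 replicates a group). Replicates within a group lay closer together than counting error alone would give. Their spread is therefore no measure for a difference of this size, and a shift of the share is not established.

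Among the activin and related receptors, ACVR1 moved the other way. ACVR1 is a type I receptor that signals mainly for bone morphogenetic proteins (BMPs) through SMAD1 and SMAD5, and it lies on the minus strand of chromosome 2 (157736444 to 157875862). It had 29.7, 27.7 and 26.5 CPM in the control replicates and 33.6, 33.6 and 31.8 CPM in the PELP1-KD replicates. All PELP1-KD replicates were higher, and the log2FC was 0.24 (standard error 0.063, edgeR adjusted p-value 0.00369), a rise of 18.0%. ACVR1B, the type I receptor for activin, lies on the plus strand of chromosome 12 (51951667 to 51997078). It had 22.6, 21.8 and 22.6 CPM in control cells and 22.7, 25.7 and 25.9 CPM in PELP1-KD cells. PELP1-KD replicate 1 was thus level with the controls, and the other two were higher. The log2FC of ACVR1B was 0.15 with a 95% interval of 0.0064 to 0.30, and it did not pass after adjustment (edgeR adjusted p-value 0.0802). With libraries scaled by their totals alone it passed, at a log2FC of 0.20 (adjusted p-value 0.0223), as it did without PELP1-KD replicate 1, at 0.21 (adjusted p-value 0.0269). ACVR2A, a type II receptor for activin, lies on the plus strand of chromosome 2 (147844517 to 147930826). It was the least abundant of the receptors by reads, with 11.1, 10.5 and 8.79 CPM in control cells and 11.7, 12.2 and 9.22 CPM in PELP1-KD cells. Replicate 3 was the lowest in both groups, and the groups overlapped. The log2FC of ACVR2A was 0.12 with a 95% interval from -0.12 to 0.35, on 156 to 260 reads per replicate and with a coefficient of variation of 11.7% in control and 14.5% in PELP1-KD cells. It was 0.030 without control replicate 3 and 0.24 without PELP1-KD replicate 3, and passed in neither case. In the annotation, 430 exon bases of ACVR2A lie under ORC4 on the opposite strand. A further antisense gene, whose symbol is not among those counted, lies over 265 exon bases of ACVR2A. Without a known strand setting the values of ACVR2A are uncertain to that extent. SMAD3 likewise has 182 exon bases under an antisense gene, whose symbol is not among those counted. SMAD4 shares 4853 exon bases with a readthrough gene on its own strand, whose symbol is not among those counted either.

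**Figure D2:**
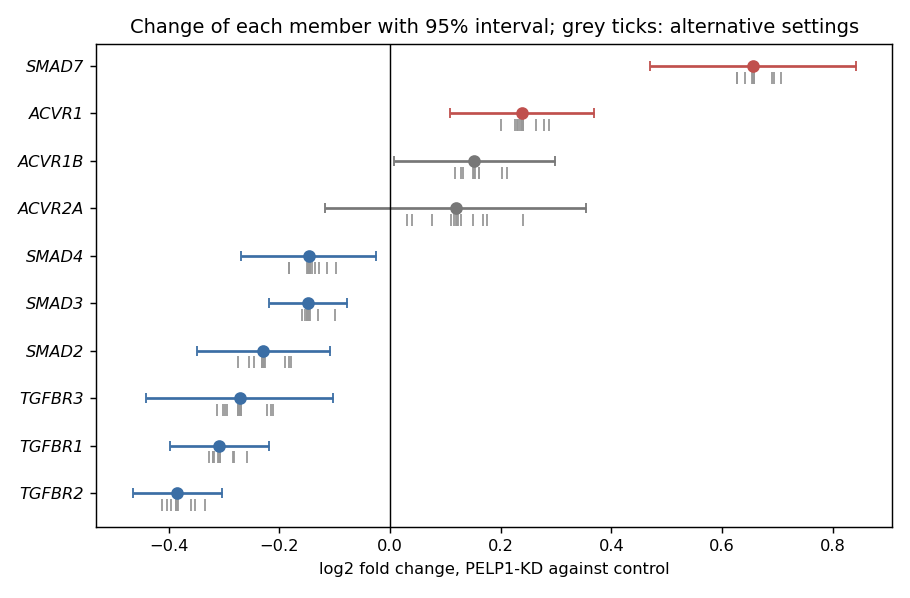
The log2FC of each gene (x axis, PELP1-KD against control) from edgeR with its 95% interval, in blue where downregulated, red where upregulated and grey where the adjusted p-value was 0.05 or above. The grey ticks, from other settings and from leaving out each replicate, stay on the same side of 0 for all 10 genes, with ACVR2A and SMAD4 nearest to 0.

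All 3 SMADs that carry the TGF-beta and activin signal forward were lower, by less than the TGF-beta receptors TGFBR1 and TGFBR2 in measured log2FC, a difference that was not tested. SMAD3, which binds DNA directly, lies on the plus strand of chromosome 15 (67063763 to 67195195). Its values were 197, 195 and 194 CPM in the control replicates and 178, 179 and 172 CPM in the PELP1-KD replicates. These were the tightest controls of the 10 genes, with a coefficient of variation of 0.678%. Counting error alone would give more on 3326 to 4436 reads, so this spread is no measure for the fall of 9.76%. In PELP1-KD cells the coefficient of variation of SMAD3 was 2.09%, and the 2 groups did not overlap. The log2FC of SMAD3 was -0.15 (standard error 0.034, edgeR adjusted p-value 0.00128). SMAD2, its close relative, lies on the minus strand of chromosome 18 (47808957 to 47931146). It had 56.4, 50.3 and 53.6 CPM in control cells and 47.4, 42.6 and 46.5 CPM in PELP1-KD cells. Replicate 2 was the lowest in both groups for SMAD2, and the groups did not overlap. Its log2FC was -0.23 (standard error 0.058, edgeR adjusted p-value 0.00263). As a share of summed SMAD2 and SMAD3 reads per transcript length, SMAD3 stood at 87.6% ± 0.576 (SD, n = 3) in control cells and 88.2% ± 0.72 (SD, n = 3) in PELP1-KD cells. That difference of 0.612 percentage points was within the spread between replicates (p = 0.4, exact permutation test, two-sided). It was 0.199 points without PELP1-KD replicate 2 and 0.923 points without control replicate 2.

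SMAD4, the common partner of the receptor-activated SMADs of the TGF-beta and BMP branches, lies on the plus strand of chromosome 18 (51028394 to 51085045). It had 41.5, 41.0 and 38.4 CPM in the control replicates and 34.7, 38.2 and 36.1 CPM in the PELP1-KD replicates. The groups were separated by a narrow margin, between control replicate 3 and PELP1-KD replicate 2. The log2FC of SMAD4 was -0.15 (standard error 0.058, edgeR adjusted p-value 0.0443), and this call was the least firm of the 8. It was lost with DESeq2, the tool of the study (adjusted p-value 0.107), and with scaling by library totals, where the log2FC was -0.098 (adjusted p-value 0.172). It was also lost without control replicate 1 (adjusted p-value 0.0847), control replicate 2 (0.128), PELP1-KD replicate 1 (0.173) or PELP1-KD replicate 3 (0.114).

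SMAD7, the inhibitory SMAD, changed most. It lies on the minus strand of chromosome 18 (48919853 to 48952052), and 158 to 322 reads per replicate were counted on it. SMAD7 had 9.64, 8.80 and 8.90 CPM in the control replicates and 15.0, 14.3 and 13.7 CPM in the PELP1-KD replicates. The lowest PELP1-KD value was well above the highest control value. SMAD7 was 57.6% higher in PELP1-KD cells, with a log2FC of 0.66 (standard error 0.089, edgeR adjusted p-value 4.5e-06), and its change was larger in size than that of 92.2% of the tested genes.

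Sequence upstream of a start site is shown for the receptor pair that fell and for SMAD7, the gene with the largest rise. The RefSeq promoter table for GRCh38.p14 holds 8 windows for TGFBR1, 2 for TGFBR2 and 3 for SMAD7. For each gene the 250 bases are those that share no base with an annotated exon of the gene and lie nearest to the start of a transcript paired with a RefSeq mRNA. For TGFBR2 they lie at chr3:30606106-30606355 on the plus strand, 146 bases before that start. For TGFBR1 they lie at chr9:99104833-99105082 on the plus strand, 6 bases before that start and inside the annotated span of the gene. For SMAD7 they lie at chr18:48949334-48949583 on the minus strand, inside the span of the gene and directly before the start of a shorter transcript. Capitals mark the letters AGAC or GTCT, the core that SMAD3 and SMAD4 are known to bind, and the GC box GGGCGG or CCGCCC, read on both strands; no marked letters overlap in these windows.
TGFBR2: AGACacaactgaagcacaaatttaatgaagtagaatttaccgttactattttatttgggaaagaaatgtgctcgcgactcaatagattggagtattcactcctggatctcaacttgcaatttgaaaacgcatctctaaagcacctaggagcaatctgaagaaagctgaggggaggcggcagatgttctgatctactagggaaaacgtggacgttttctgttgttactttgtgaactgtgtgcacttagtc
TGFBR1: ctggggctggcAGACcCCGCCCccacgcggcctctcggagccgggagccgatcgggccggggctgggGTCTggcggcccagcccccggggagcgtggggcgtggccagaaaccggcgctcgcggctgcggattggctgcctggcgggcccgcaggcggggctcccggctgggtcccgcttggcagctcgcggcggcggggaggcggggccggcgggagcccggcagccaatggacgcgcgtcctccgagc
SMAD7: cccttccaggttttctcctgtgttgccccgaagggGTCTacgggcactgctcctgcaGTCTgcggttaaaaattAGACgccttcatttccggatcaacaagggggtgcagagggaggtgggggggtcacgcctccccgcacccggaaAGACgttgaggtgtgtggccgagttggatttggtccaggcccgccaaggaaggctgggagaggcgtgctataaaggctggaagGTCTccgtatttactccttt
The SMAD core occurs at 1 position in the TGFBR2 window, 2 in the TGFBR1 window and 5 in the SMAD7 window. At least 1 match is found in 77.5% of the 35116 promoter windows of the same length, at least 2 in 45.6% and at least 5 in 2.52%. The SMAD7 window shown holds the most of its 3 windows. The others hold 1 and 4 matches, where 7.75% of all windows hold at least 4. The other TGFBR2 window holds 1 match, and the TGFBR1 windows not shown hold 0 to 2. The GC box occurs at 1 position in the TGFBR1 window and at 0 positions in those of TGFBR2 and SMAD7, where 42.6% of all windows hold at least 1. The other TGFBR2 window, chr3:30606351-30606600, lies directly before a transcript start and shares 99 bases with exons. It holds 2 GC boxes, where 24.3% of all windows hold at least 2. The windows not shown hold 0 to 6 GC boxes for TGFBR1 and 0 for SMAD7. A match of letters is a description and shows no binding.

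To compare the genes with each other, reads were divided by the length of the principal transcript (RPKM, which is CPM per kilobase). In control cells, TGFBR2 was the most abundant at 46.8 RPKM ± 1.77 (SD, n = 3), followed by SMAD3 at 31.3 ± 0.212, TGFBR1 at 17.2 ± 0.576 and ACVR1 at 9.77 ± 0.566. The middle of the order was close: ACVR1B had 4.90 RPKM ± 0.105, SMAD4 4.59 ± 0.192 and SMAD2 4.42 ± 0.249, and the replicates of SMAD4 and SMAD2 overlapped. TGFBR3 had 3.03 RPKM ± 0.236, SMAD7 2.06 ± 0.103 and ACVR2A 1.77 ± 0.207. From the highest to the lowest, the mean levels spanned 26.5-fold in control cells and 18.6-fold in PELP1-KD cells. In PELP1-KD cells the order by this length was kept with a single exchange. SMAD7 at 3.24 RPKM ± 0.153 stood above TGFBR3 at 2.50 ± 0.173, without overlap of replicates. By the length of all annotated exons, SMAD7 passed SMAD4 as well in PELP1-KD cells, at 2.85 against 2.77 RPKM, with overlap of replicates. The place of SMAD2 depends on the transcript taken. Its RefSeq-paired transcripts run from 10445 to 34526 bases, and with all annotated exons, 36366 bases, SMAD2 fell to the last place in control cells at 1.47 RPKM, overlapping ACVR2A. The first 5 places were the same by the principal transcript and by all exons. Shorter RefSeq-paired transcripts were not tried. They run down to 1147 bases for SMAD3, 1791 for ACVR1B and 1152 for SMAD7, with which the levels of these genes would be higher.

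**Figure D3:**
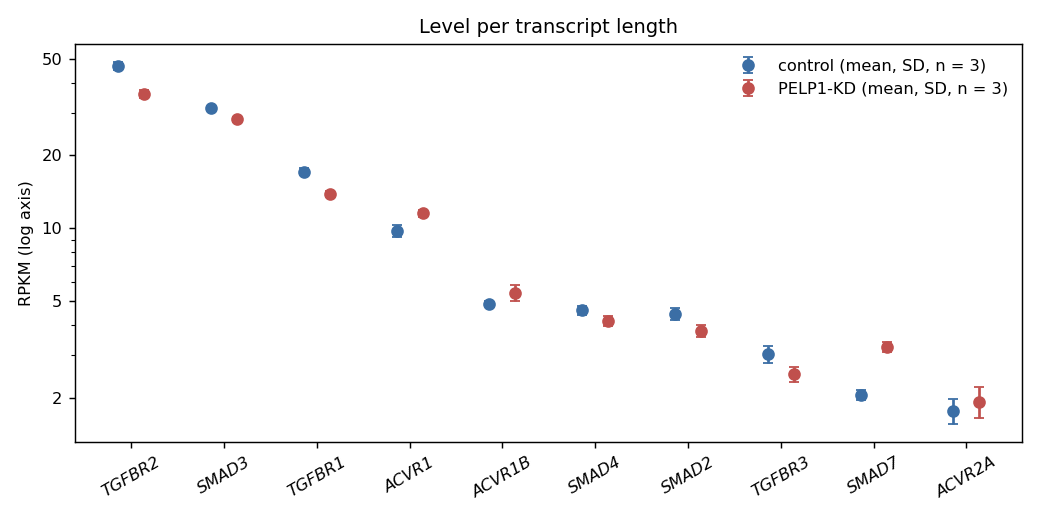
RPKM (log axis) of the 10 genes by the length of the principal transcript, as the mean with SD of 3 replicates in control (blue) and PELP1-KD cells (red), in the order of the control level. TGFBR2, SMAD3 and TGFBR1 hold the top in both groups, and SMAD7 passes TGFBR3 in PELP1-KD cells.

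The genes whose pattern was most like that of TGFBR2 were sought among the 12786 tested genes outside the 10 by the root mean square difference of log2 CPM, centered on each gene's mean, over the 6 replicates. JMJD1C (0.010), a relative of the histone demethylases, TMEM48 (0.016), a nuclear pore protein, and CCDC99 (0.016), a kinetochore protein, were nearest, where the median gene stood at 0.226. These 3 genes had a log2FC of -0.37, -0.40 and -0.37. Of the other receptors and SMADs, TGFBR1 was nearest, at 0.041. These distances are given as a description.

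The other genes of the pathway were counted in 6 lists with 139 genes, 108 of them tested. Their counts stand against 24.2% of all tested genes downregulated and 22.7% upregulated. Of the 7 tested receptors and coreceptors outside the 10 genes, 3 (42.9%) were downregulated and 0 upregulated, few genes to set against those shares, with a median log2FC of -0.15. At an unadjusted edgeR p-value below 0.05, 0 were higher, and DESeq2 and limma-voom called 0 as upregulated. RGMB, a BMP coreceptor, fell from 107 CPM ± 1.17 to 79.4 CPM ± 0.885 (SD, n = 3 each), a log2FC of -0.43 (edgeR adjusted p-value 2.94e-08). BMPR1B, a type I BMP receptor, fell from 2.22 CPM ± 0.432 to 0.922 CPM ± 0.17, a log2FC of -1.26 (adjusted p-value 1.74e-04). Of the 4 other SMADs, SMAD5, a BMP-activated SMAD, fell from 159 CPM ± 4.02 to 106 CPM ± 6.79, a log2FC of -0.59 (adjusted p-value 9.2e-10). SMAD6, the other inhibitory SMAD, rose from 2.54 CPM ± 0.494 to 3.48 CPM ± 0.617, a log2FC of 0.48 (adjusted p-value 0.0363), but its groups overlapped, and it did not pass with DESeq2 or without control replicate 1, control replicate 2, PELP1-KD replicate 2 or PELP1-KD replicate 3. SMAD1 and SMAD9 did not pass.

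Of 28 tested SMAD partners and regulators, 13 (46.4%) were downregulated, against 24.2% of all tested genes, and 5 (17.9%) upregulated, near the 22.7% of all tested genes, with a median log2FC of -0.034. UCHL5, a deubiquitinase that binds SMAD7, fell from 127 CPM ± 7.16 to 70.2 CPM ± 1.53, a log2FC of -0.86 (adjusted p-value 5.78e-12). SMURF2, a ubiquitin ligase that SMAD7 brings to the receptors, fell from 310 CPM ± 7.38 to 209 CPM ± 5.45, a log2FC of -0.57 (adjusted p-value 2.2e-11). PMEPA1, a membrane protein that sequesters SMAD2 and SMAD3 and is induced by TGF-beta, rose from 74.0 CPM ± 2.25 to 148 CPM ± 2.43, a log2FC of 0.999 (adjusted p-value 7.78e-14). DAB2, an adaptor that joins receptors and SMADs, rose by a log2FC of 0.49 (adjusted p-value 5.35e-07). The upregulated genes of this list numbered 3 without control replicate 2 or without PELP1-KD replicate 3. Its downregulated genes numbered 9 with scaling by library totals, where 2418 of all tested genes were downregulated, and 10 without PELP1-KD replicate 2. In the branch through TAK1 and other kinases, 9 of 19 tested genes (47.4%) were downregulated, against 24.2% of all tested genes, and 3 (15.8%) upregulated, against 22.7%, with a median log2FC of -0.14. They included the kinase MAPK14 (log2FC -0.39) and the exchange factor SOS1 (-0.44) among the falls and the adaptor TRAF4 (0.49) and the kinase MAP2K3 (0.23) among the rises. Scaled by library totals, 7 genes of this branch were upregulated.

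Among ligands and response genes, more rose than fell. Of the 14 tested ligands, latency proteins and antagonists, 7 (50.0%) were upregulated, against 22.7% of all tested genes, and 2 (14.3%) downregulated, against 24.2%, with a median log2FC of 0.28. LTBP2 and THBS1, a matrix protein related to the latency proteins and an activator of latent TGF-beta, rose by a log2FC of 2.05 and 1.03, whereas LTBP1, which holds latent TGF-beta in the matrix, fell from 25.3 CPM ± 0.384 to 11.3 CPM ± 1.04, a log2FC of -1.16 (adjusted p-value 2.38e-10). GDF11, an activin-type ligand, fell by a log2FC of -0.39 (adjusted p-value 2.02e-04). Of 36 tested genes known to respond to TGF-beta, 19 (52.8%) were upregulated and 6 (16.7%) downregulated, against the same shares of 22.7% and 24.2%, with a median log2FC of 0.41. The list of response genes was not divided by whether TGF-beta raises or lowers a gene. Its counts and median therefore do not measure a response to TGF-beta. TGFBI, a matrix protein, and TAGLN, an actin-binding protein of smooth muscle, rose by a log2FC of 1.15 and 1.55, respectively. TSC22D1, a transcription regulator, fell from 164 CPM ± 1.38 to 126 CPM ± 2.87 (SD, n = 3 each), a log2FC of -0.38 (adjusted p-value 4.55e-08). These 2 lists were chosen with the rise of THBS1, LTBP2 and TGFBI in these samples already known, so that their counts are not independent evidence of a direction, and no test of a list was run.

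**Figure D4:**
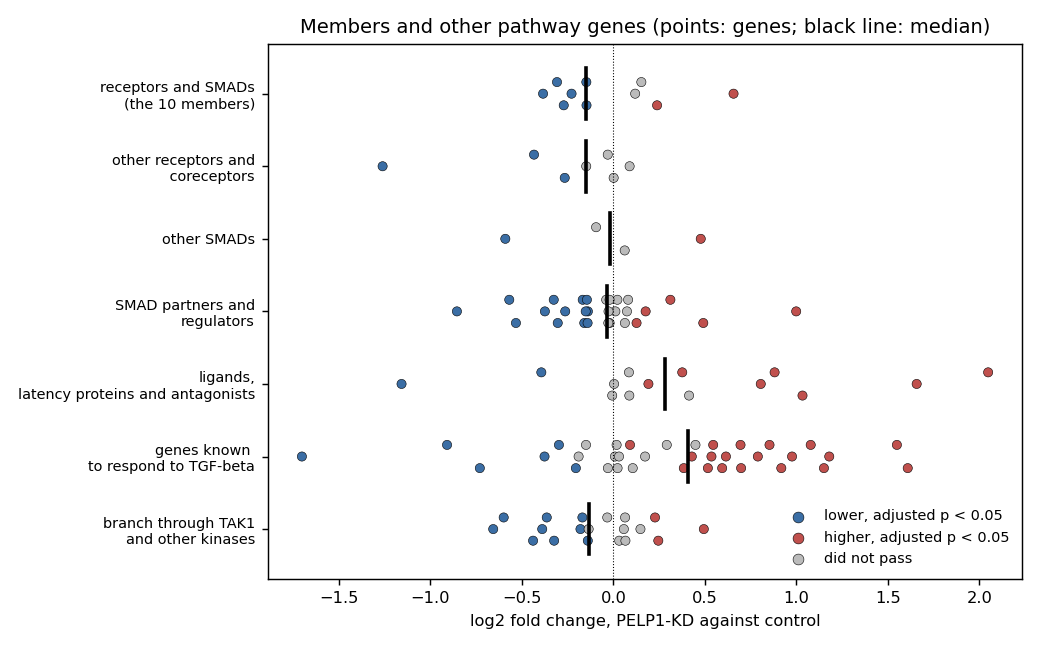
The log2FC (x axis, PELP1-KD against control) of the 10 genes and of the tested genes in 6 pathway lists, 1 point a gene, blue where downregulated, red where upregulated and grey where the adjusted p-value was 0.05 or above. Black lines are medians, which are -0.15 for the 10 genes and 0.41 for genes known to respond to TGF-beta.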

How the data were processed

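The study sequenced RNA from MDA-MB-231 cells of both groups (3 replicates each), with stranded poly(A) libraries and single reads. The authors deposited raw read counts per gene symbol without normalization. Their processing notes name bcl2fastq, TopHat2, SAMtools and HTSeq and the build hg19, without versions; the strand setting and gene annotation are not given in the sources used here. The rows of reads counted on no gene, 41.0% to 41.4% of each table mainly because their alignment was not unique, were left out of library sizes and tests. Counts per gene summed to between 17304864 and 23132102, and floors of 3 counts cover counting error alone.

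Genes were tested on all counts with the quasi-likelihood test of edgeR 4.0.16 (R 4.3.3), after filterByExpr (minimum 10) and TMM scaling, with Benjamini-Hochberg adjustment over 12796 genes and a threshold of 0.05. The standard error is the log2FC over the square root of F. The test was checked on simulated counts with 50 changed genes at each size. It recovered 38 at a log2FC of 0.3 in size, 48 at 0.6, 42 at 1 and 49 at 1.5. Of 12511 unchanged genes, 10 were called. Changes smaller than 0.3, as in several of the 10 genes, were not simulated. Alternatives were RLE scaling, library totals, DESeq2 1.42.0, limma-voom 3.58.1, no filter, at least 10 counts in every library, a replicate block and leaving out each replicate. The length of all exons was added after the data were seen, since SMAD2 has a transcript of 34526 bases.

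Lengths, positions and overlaps come from GENCODE release 29 (GRCh38) and not from the count tables; the length is that of the shortest APPRIS principal transcript paired with a RefSeq mRNA. Named are the 10 genes, PELP1, the markers, the 3 genes nearest to TGFBR2 and, in each list, the 2 lowest p-values in each direction, of which some are not reported here. The genes and lists were chosen with earlier results of these data known.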

Additional observations from a re-analysis of the deposited data

How the results depend on the processing

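Over 13 alternatives for each of the 10 genes, 121 of 130 values kept both their direction and their side of the threshold, and 0 changed direction. The exceptions concern SMAD4, TGFBR3 and ACVR1B. SMAD4 did not pass with library totals (log2FC -0.098) or DESeq2 (-0.15), and ranged from -0.18 to -0.11 with a replicate left out. TGFBR3 ranged from -0.31 to -0.21 and ACVR1B from 0.12 to 0.21 with a replicate left out, and ACVR1B passed with library totals (0.20). The causes were not tested. Between 5 and 6 of the 10 genes were downregulated and between 2 and 3 upregulated in every setting. Library totals, which leave the median log2FC at 0.051, gave 2418 downregulated and 3817 upregulated genes of all tested, against 3103 and 2904. Among the pathway lists, the upregulated genes of the kinase branch numbered 7 with library totals against 3. Those of the SMAD regulators numbered 3 against 5 with a replicate left out, and SMAD6 was lost with DESeq2 or a replicate left out. The downregulated genes of the SMAD regulators numbered 9 with library totals against 13. The deviations of same-numbered replicates had correlations of 0.039, 0.065 and -0.078. No pairing by replicate number was seen, although 3 replicates a group cannot exclude it. With the replicate number as a block, 6 of the 10 genes were downregulated and 2 upregulated, and 6475 of all genes passed against 6007. ACVR2A, which did not pass in any setting, ranged from 0.030 to 0.24 with a replicate left out. The least counted of the 10 genes, ACVR2A and SMAD7, rest on 156 to 260 and 158 to 322 reads per replicate.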
